A study of Mus musculus with 2 samples.

Results

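The replication-dependent histone genes were examined in total RNA of mouse hippocampus. Members were the genes whose symbol starts with Hist1h, Hist2h, Hist3h or Hist4h and that have at least 1 transcript annotated as protein-coding. This rule, which uses names and annotation and no measured value, gave 67 of 55536 annotated genes, and 3 further genes with such symbols had no protein-coding transcript. The members comprised 6 genes for the linker histone H1, 18 for H2A, 18 for H2B, 12 for H3 and 13 for H4. The 2 libraries form 1 group, layer of hippocampus tissue from B6CASTF1/J mice, an F1 hybrid strain, at 10 days of age, with no treatment named. Each library was labelled male, started from 300 ng of RNA and carries a label naming 3 males, so pooled animals are possible and no donor was told apart. There was no comparison between conditions. The results are the levels of the members, their spread over both libraries, and how far the libraries differ.

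Histone proteins package DNA into nucleosomes, each wrapped around a core of H2A, H2B, H3 and H4 and bound at the linker by H1. Most of these proteins are made during S phase, when new DNA must be packaged, from short genes without introns that lie in clusters and exist in many near-identical copies. Their mRNAs end in a conserved stem-loop and not in a poly(A) tail, so they are kept in total RNA and largely lost when libraries are built from polyadenylated RNA. The stem-loop is bound by SLBP, and the U7 small nuclear RNP directs the cut after it. Neurons no longer divide and replace histones with variants made outside S phase, whereas at this age the hippocampus still holds dividing granule cell and glial precursors.

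The expected counts, estimates of the reads that come from each gene, summed to 32035705 in replicate 1 and 29747193 in replicate 2. The sex-linked genes went against the label of 1 library. Xist, the RNA that coats the inactive X chromosome, had 25 counts in replicate 1 and 30841 in replicate 2, and the Y-linked genes Ddx3y, Eif2s3y, Kdm5d and Uty had 764 to 2164 counts and 0 to 2. Replicate 2 is therefore called the library labelled male, replicate 2, where a direction is drawn from it. Markers of hippocampal neurons were detected in both libraries (6 of 6), led by Camk2a at 788 and 882 TPM, a level that takes account of transcript length and sequencing depth.

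The stem-loop is shown because it is the feature that sets these mRNAs apart. A search of the GENCODE M21 transcripts on mm10 looked downstream of the stop codon for a stem of 6 base pairs that starts with GG, around a loop of 4 bases that starts with TTT. It found the structure in 44 of 67 members. Of the other members, 13 have transcript models that end at the stop codon, and 10 have some sequence past the stop codon but no match in it. Anywhere in their transcripts, 24 of 21834 other protein-coding genes (0.110%) held the pattern. The stem lay a median of 31 bases after the stop codon. Only 6 distinct stem-loops occurred, and H4 genes shared none of theirs with the other types, as these examples show, 5′ to 3′, with both arms of the stem in capitals and flanks of 5 bases.
Hist1h1e: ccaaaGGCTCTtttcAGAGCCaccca
Hist2h2aa2: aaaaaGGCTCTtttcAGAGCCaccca
Hist1h2bg: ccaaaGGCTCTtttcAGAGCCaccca
Hist1h3e: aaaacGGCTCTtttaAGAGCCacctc
Hist2h2ac: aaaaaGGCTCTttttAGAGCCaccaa
Hist1h4h: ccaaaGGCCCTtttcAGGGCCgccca
Hist1h4i: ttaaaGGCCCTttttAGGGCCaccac
Hist1h4b: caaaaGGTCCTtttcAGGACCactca
The form seen in Hist1h1e (chr13.0:23621777-23621802, minus strand), Hist2h2aa2 and Hist1h2bg occurred in 26 members of the H1, H2A, H2B and H3 types. That of Hist1h3e, with another last loop base, occurred in 6 members of the H1, H2B and H3 types, and that of Hist2h2ac in 1 H2A gene. All 11 H4 genes with a match had a different stem. It was that of Hist1h4h (chr13.0:23531453-23531478, plus strand) in 7 H4 genes, that of Hist1h4i in 2 and that of Hist1h4b in 2, and none of these 3 forms was found in a member of another type.

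Promoters also differed by type. RefSeq promoters (GRCm38.p6) could be matched by gene for 61 members, and the 250 bases before the start of each were searched on both strands for 4 motifs. The TATA box, searched as TATAAA, was present in 29 of 61 (47.5%), against 13.0% of all 27025 promoters. Position was not used, and these matches lay from position -250 (Hist1h4f) to -10 (Hist1h2bb) relative to the start. Those far upstream are matches of the letters and need not be a TATA box, and matches near the start were not counted apart. The CCAAT box, searched as CCAAT, was present in 50 of 61 (82.0%) against 34.5%. It was present in all 6 H1, all 17 H2A and all 16 H2B promoters and in 8 of 10 H3 promoters, but in 3 of 12 H4 promoters. The octamer ATTTGCAT, the binding motif of Oct factors, was found in 7 H2A and 6 H2B promoters and in no H1, H3 or H4 promoter, against 1.61% of all promoters. The AC box AAACACA, an element known from H1 promoters, was found in 5 of 6 H1 promoters, 2 H2A and 2 H2B promoters, against 6.22% of all. Many H2A and H2B genes lie back to back, so their searched bases overlap and the same site can be counted for both. The octamer of Hist1h2ae and that of Hist1h2bg are such a shared site. The H2A and H2B matches are therefore not all separate. A motif match is a description of the letters and shows no binding. The promoters of an H1, an H2B and an H4 gene are given 5′ to 3′ on the gene's strand, with the matches in capitals (ATTGG is CCAAT on the other strand).
Hist1h1e: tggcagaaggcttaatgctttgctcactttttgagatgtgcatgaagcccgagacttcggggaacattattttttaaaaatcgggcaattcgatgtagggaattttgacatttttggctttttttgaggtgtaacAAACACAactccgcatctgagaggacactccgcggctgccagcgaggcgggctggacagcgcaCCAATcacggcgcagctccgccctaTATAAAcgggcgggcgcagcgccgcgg
Hist1h2bg: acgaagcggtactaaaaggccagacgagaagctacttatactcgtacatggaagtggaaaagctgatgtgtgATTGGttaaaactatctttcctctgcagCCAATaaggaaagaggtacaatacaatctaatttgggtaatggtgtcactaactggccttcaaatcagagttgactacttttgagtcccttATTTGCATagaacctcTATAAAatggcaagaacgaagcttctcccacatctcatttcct
Hist1h4d: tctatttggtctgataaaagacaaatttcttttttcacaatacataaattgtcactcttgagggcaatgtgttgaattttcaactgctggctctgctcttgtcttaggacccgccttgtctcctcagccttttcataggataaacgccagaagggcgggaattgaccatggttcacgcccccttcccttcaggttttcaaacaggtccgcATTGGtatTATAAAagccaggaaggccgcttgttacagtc
That of Hist1h1e (chr13:23622559-23622808, minus strand) has the AC box, CCAAT and TATA boxes in that order. That of Hist1h2bg (chr13:23571150-23571399, plus strand) has 2 CCAAT boxes, the octamer and a TATA box. Hist1h4d (chr13:23581318-23581567, plus strand) is 1 of the 3 H4 genes with a CCAAT match, which lies next to its TATA box.

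Nearly all members were detected from alignments. At 1 TPM or more in both libraries, 63 of 67 (94.0%) were detected, compared with 27.2% of all genes and 59.4% of the 22028 protein-coding genes. From FASTQ 53 members were detected, and the share of all genes was not counted there. Reads of near-identical copies are divided between them, and 6 members have no stretch of 100 bases found in no other gene. Detection of a single copy is therefore uncertain for such members. From alignments the TPM of the 67 members summed to 1985 and 2194, or 2090 ± 147 (SD, n = 2). Their expected counts made up 0.0702% and 0.0795% of each library. The level was spread over many copies, so that 12 members were needed to reach 50% of the summed TPM. The members below 1 TPM from alignments were the 3 genes known for their use in the male germ line and 1 H3 gene. Hist1h1t, the testis H1, had 2 counts in each library (0.11 and 0.12 TPM). Hist1h2aa and Hist1h2ba, the testis H2A and H2B that share 1 promoter region, had 0 counts in both. At this depth a count of 0 allows up to 3 counts, and the FASTQ-based table listed 0 and 16.4 counts for Hist1h2ba. Hist2h3c1 had 0 and 4.25 counts, and its whole annotated sequence is shared with other genes. In these bulk samples, fewer expressing cells and less RNA per cell cannot be told apart.

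**Figure D1:**
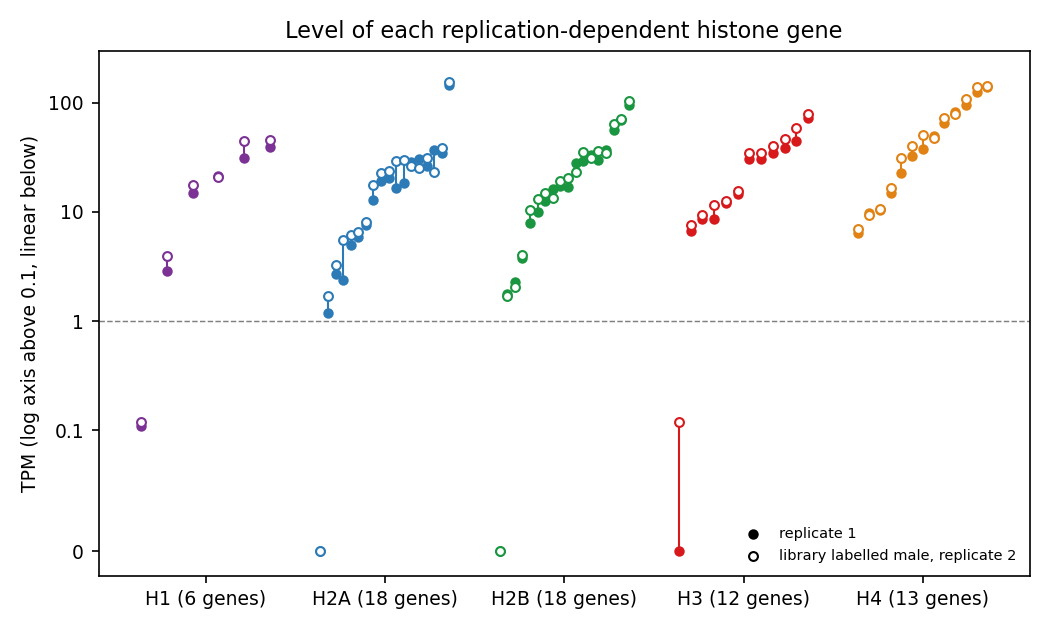
Level of each of the 67 members in TPM (log axis above 0.1, linear below), by histone type and ordered by mean level within the type. Filled points are replicate 1, open points the library labelled male, replicate 2, lines join the values of a gene, and the dashed line is 1 TPM. All but 4 members lie above the line in both libraries.

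The members lie in 5 blocks on 4 autosomes, if neighbours less than 1 Mb apart are joined. On chromosome 13 the Hist1 genes form 2 blocks. The block at 21715763 to 22043676 holds 23 genes, all detected, with 35.9% ± 0.139 of the summed TPM (SD, n = 2), and the block at 23531050 to 23934851 holds 31 genes with 40.7% ± 0.144. The Hist2 genes on chromosome 3 (96219865 to 96270132) are 10 genes with 18.3% ± 0.136. Hist3 on chromosome 11 (58948920 to 58956830) has 2 genes with 4.73% ± 0.142, and Hist4 on chromosome 6 has the single gene Hist4h4 with 0.320% ± 0.00466. Each block thus held nearly the same share in both libraries.

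By type, H4 had the highest summed level and H1 the lowest. H4 summed to 694 and 759 TPM, H2B to 467 and 498, H2A to 414 and 453, H3 to 301 and 350, and H1 to 109 and 134. In that order the ranges of neighbouring types did not overlap. H2A and H2B were closest, at 434 ± 27.7 and 482 ± 22.01 TPM (SD, n = 2). The order of the core histones differed between the tables and scales. In the FASTQ-based table H2A led with 808 ± 30.7 TPM, followed by H3 (509 ± 47.1), H4 (499 ± 9.66), H2B (486 ± 4.47) and H1 (170 ± 24.1). With the alignment-based counts taken per RefSeq length, H2A held 19.1% and H2B 18.4% of the level, the reverse of their order in TPM.

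**Figure D2:**
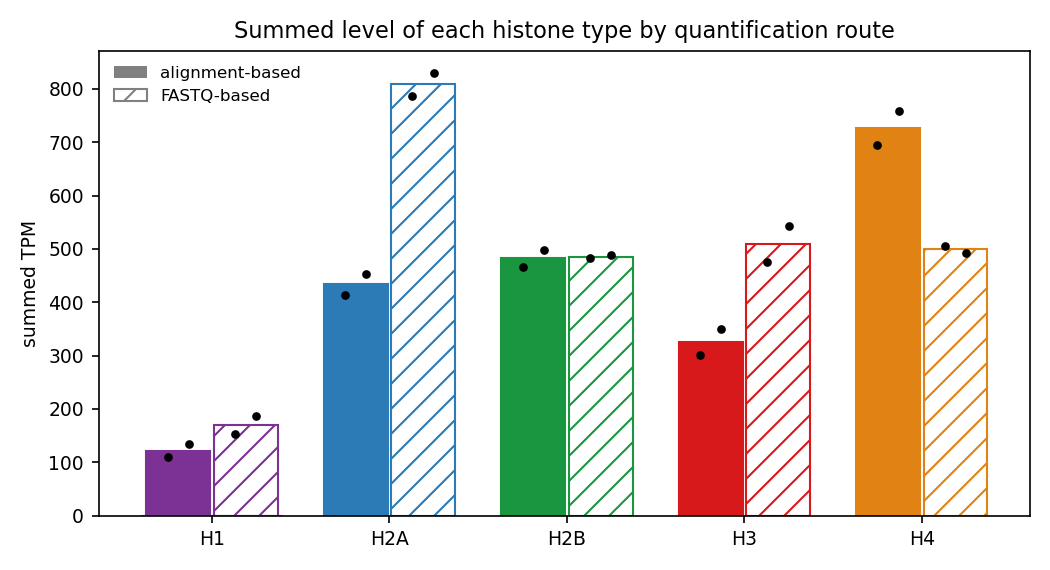
Summed TPM of the members of each histone type, from the alignment-based table (filled bars) and the FASTQ-based table (hatched bars). Bars are means over 2 libraries and points the libraries, replicate 1 on the left. H4 is highest from alignments and H2A from FASTQ, while H1 is lowest by both.

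The linker histones had 5 somatic members and each encodes its own protein. Hist1h1c (H1.2; chromosome 13, 23738808 to 23740367, plus strand) stood at 39.1 and 46.1 TPM and Hist1h1e (H1.4; 23620629 to 23622558, minus strand) at 31.1 and 45.0. Hist1h1a (H1.1) stood at 21.2 and 20.96 and Hist1h1b (H1.5) at 14.8 and 17.8. The length of the gene model bears on this order. Hist1h1d (H1.3) was lowest of the somatic genes at 2.86 and 3.93 TPM despite 454 and 579 counts, because its GENCODE model spans 7425 bases, 4884 of them past the stem-loop. On a scale of counts per RefSeq length (776 bases for this gene) it stood at 32.5 and 44.7, and Hist1h1e at 87.8 and 127. The models of 12 members run more than 500 bases past the stem-loop, so their TPM divides by sequence beyond it. Where the reads lie along these models was not examined. The RefSeq scale keeps all counts of a gene, so any reads past the stem-loop raise its value there.

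In the H2A group the Hist2h2aa pair led in TPM. Hist2h2aa2 (chromosome 3, 96239749 to 96240276, minus strand) stood at 145 and 155 TPM, the highest member of all on this scale. Its neighbour Hist2h2aa1 (96245497 to 96246082, plus strand) stood at 2.68 and 3.28 TPM although its coding sequence is identical, and neither gene has a stretch of 100 bases that is found in no other gene. From FASTQ the split was the opposite, with 0 counts for Hist2h2aa2 and 1123 and 1063 for Hist2h2aa1. The sum of the pair was 1375 and 1367 counts from alignments and 1123 and 1063 from FASTQ, closer between the routes than the split. The split is uncertain, and the sum may be affected too, since each gene shares windows with 23 other genes. Among these is Gm20634, which overlaps Hist2h2aa1 on the same strand. It had 211 and 264 counts from alignments and 380 and 436 from FASTQ. The next H2A genes were Hist1h2ai at 34.7 and 38.8 TPM, Hist1h2ap at 37.1 and 23.2, and Hist3h2a at 26.6 and 30.9. Hist3h2a has a model of 2146 bases inside that of Trim17, and per RefSeq length it stood at 129 and 150, above Hist2h2aa2 at 126 and 134. The 18 H2A genes encode 9 proteins. The protein shared by 9 Hist1 genes had 159 ± 10.2 TPM (SD, n = 2) and that of the Hist2h2aa pair, which differs from it in 4 residues, had 153 ± 7.31.

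H2B had the most different proteins among the core histones, with 11 from 18 genes. In TPM, Hist2h2bb stood highest at 94.7 and 103, then Hist3h2ba at 69.3 and 70.7, Hist1h2bg at 56.5 and 64.5, and Hist1h2bl at 37.3 and 34.4. Hist3h2ba encodes a protein with 7 residues different from the most shared H2B, and 95.1% of its windows of 100 bases are unique. It led on the other scales, with a mean of 94.1 per RefSeq length against 81.6 for Hist1h2bg and 68.4 for Hist2h2bb. By FASTQ it had 76.2 TPM against 73.6 for Hist1h2bf and 54.7 for Hist2h2bb. Hist2h2bb has no unique window, since it lies within the model of a non-coding gene on the same strand, Gm42743, which had 70.2 and 41.6 counts against 579 and 587 for Hist2h2bb.

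H3 genes encode 2 proteins that differ at 1 residue. The form with 2 cysteines, H3.1, comes from Hist1h3a, Hist1h3g, Hist1h3h and Hist1h3i, and the form with 1 cysteine, H3.2, from 8 genes. In TPM from alignments H3.2 held 59.3% and 57.4% of the H3 level and H3.1 40.7% and 42.6%. The gap was wider on other scales. From FASTQ H3.2 summed to 324 and 364 TPM and H3.1 to 152 and 178. In alignment-based counts H3.2 had 2349.2 and 2476.5 and H3.1 933.4 and 1046.5. Hist2h3b led at 72.0 and 78.2 TPM, followed by Hist1h3h at 45.0 and 58.4, Hist1h3i at 38.1 and 46.7 and Hist1h3e at 34.5 and 40.5.

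H4 is the extreme of copy number without protein diversity. Its 13 genes have 12 coding sequences, 85.4% to 100% identical, and 1 protein of 103 residues. Hist1h4k (chromosome 13, 21750194 to 21750505, minus strand) stood at 140 and 144 TPM, Hist1h4h at 126 and 141, Hist1h4m at 96.2 and 108, and Hist1h4f at 81.8 and 79.6. From FASTQ the means were 0.444 TPM for Hist1h4k, 245 for Hist1h4h, 77.2 for Hist1h4m and 0 for Hist1h4f. From alignments all 13 were detected, down to Hist4h4 at 6.42 and 6.95 TPM, whose model has 2863 bases. From FASTQ Hist1h4k, Hist1h4f and Hist1h4b had means below 1 TPM. By alignment-based counts, Hist1h4d (23581598 to 23582735, plus strand) was the most abundant H4 gene, with 1484 and 1524, against 9 and 13 from FASTQ. Its TPM of 65.9 and 72.8 rests on a model of 1138 bases, and per RefSeq length of 402 bases it was the highest member of all, at 206 and 227.

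The replication-dependent genes were set beside the variants that are made throughout the cell cycle. For H3 the variant genes H3f3a (215 and 223 TPM) and H3f3b (179 and 194), which encode H3.3, summed to 394 and 417 TPM, above the 12 H3 members in both libraries. Replication-dependent genes thus held 43.4% and 45.7% of H3 mRNA. For H2A they held 63.8% and 65.5%, beside 6 variant genes led by H2afz at 86.4 and 81.2 TPM. For H1 they held 58.8% and 62.0%, beside H1fx (40.2 and 40.6 TPM) and H1f0 (36.2 and 41.6), the linker histone known from non-dividing cells. From FASTQ these shares were 41.3% ± 1.27, 69.3% ± 1.13 and 58.5% ± 2.23 (SD, n = 2). All these shares depend on the lengths of the gene models, that of H1 in particular. Per RefSeq length Hist1h1e had a mean of 107 and Hist1h1c of 103, against 38.05 and 42.6 TPM. The shares were not computed on that scale.

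Genes that serve histone supply were expressed too. Of 10 genes listed for the 3′ end processing of histone mRNA, 9 were detected, with Slbp at 12.9 and 11.7 TPM. This list includes Npat, a transcriptional coactivator of histone genes. Lsm11, a part of the U7 particle, was highest at 69.1 and 66.4 TPM, then the cleavage factors Cstf2 at 49.2 and 55.5 and Sympk at 39.6 and 39.5. Zfp473, a zinc finger protein of the same pathway, was at 0.07 and 0.12 TPM. Of 11 histone chaperones 10 were detected, led by Nap1l1 (90.4 and 95.3 TPM), Ssrp1 (54.8 and 51.8) and Hira (43.9 and 45.3), which deposits H3.3. All 6 genes of histone mRNA decay that were found were detected, led by Exosc10 (25.8 and 25.0 TPM), Upf1 (22.8 and 23.7) and Lsm1 (14.6 and 10.7). Of 17 S-phase genes, 16 were detected, at a median of 4.46 and 5.10 TPM. The highest were the sliding clamp Pcna at 24.7 and 24.9, the helicase subunit Mcm7 at 9.33 and 10.4, and Mcm6 at 8.33 and 8.43.

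Many members are divergent pairs that share the sequence between their starts. Of 13 pairs with starts less than 1000 bases apart, 12 join an H2A and an H2B gene, at a median distance of 268 bases. Over the 13 pairs the alignment-based TPM of the partners had a Spearman correlation of 0.53. It is given as a description, since partners share a library and their reads may be shared with other copies. The pair of Hist1h2ba and Hist1h2aa, at 0 TPM in both libraries, is included. The correlation was not computed from FASTQ. Some partners were close from alignments, such as Hist1h2bl (37.3 and 34.4 TPM) and Hist1h2ai (34.7 and 38.8), which by FASTQ had means of 4.75 and 70.2. In 5 pairs the partners differed more than 4-fold. Hist1h2bg stood at 56.5 and 64.5 TPM while its partner Hist1h2ae stood at 5.84 and 6.52. By FASTQ the mean was 53.9 TPM for Hist1h2bg and 55.4 for Hist1h2ae, so the partners were close by that route. Hist2h2ac stood at 19.1 and 22.9 TPM and its partner Hist2h2be at 1.76 and 1.69, and by FASTQ the means were 33.0 and 2.22.

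How far the copies can be told apart was read from their sequence. Of all windows of 100 bases in a member's longest protein-coding transcript, a median of 62.9% occurred in no other gene. For Hist1h2bp, Hist1h2bq and Hist1h2br that transcript held at most 4.52% of the gene's level in either library. The median was 99.6% for H1, 81.0% for H4, 62.6% for H2B, 50.3% for H3 and 30.1% for H2A. All windows were unique in 6 members (Hist1h1a, Hist1h1b, Hist1h1t, Hist1h4d, Hist2h2be and Hist2h4), fewer than 50% in 28 and none in 6. The deposited standard deviation of the read assignment, the spread of a gene's count over ways of dividing shared reads, was a median of 4.54% of the count in the 50 members whose mean count reached 100, while its median over the 12874 genes at that level was 0. It exceeded 20% in 5 of these 50 members, against 0.699% of the 12874 genes, and in 10 of all 67 members. Over 65 members its Spearman correlation with the share of unique windows was -0.71, a description across genes. Hist2h2bb, with no unique window and an assignment standard deviation of 0.393%, went against that relation.

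**Figure D3:**
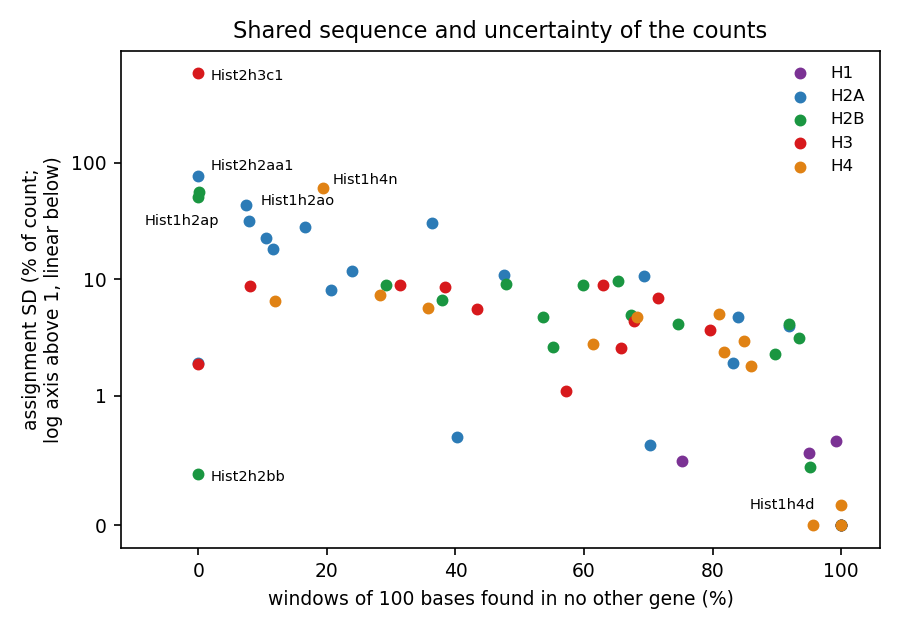
Share of a member's windows of 100 bases that occur in no other gene (percent), against the deposited standard deviation of its read assignment (percent of the count, mean of 2 libraries, log axis above 1 and linear below), for 65 members. Members with few unique windows mostly have the larger standard deviations, up to 76.7% for Hist2h2aa1 among detected members, and Hist2h2bb at the lower left is an exception.

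The FASTQ-based table assigned 57.6% of the alignment-based counts to the members, 13280 against 23059 on average. Counts were lower from FASTQ in 53 members and higher in 13. Among the 50 members whose mean count reached 100 the median log2 ratio of FASTQ to alignments was -1.14, against 0.09 over 12874 genes. The share was lowest for H4, at 22.1%, then H2B (59.7%), H3 (73.4%), H2A (75.0%) and H1 (87.0%). It was under 10% in 11 of the 50 members whose mean count reached 100, 6 of them H4 genes, and in 1.43% of the 12874 genes at that level. Among all 67 members it was under 10% in 13. Hist1h4d had 1484 and 1524 counts from alignments and 9 and 13 from FASTQ, although all its windows are unique and its assignment standard deviation was 0.159%. Hist1h4k had 646 and 618 against 0 and 1, Hist1h4f 518 and 468 against 0 in both, and Hist1h4b 245 and 302 against 3 and 0. These H4 genes were thus among the higher members by one route and nearly absent by the other. Hist1h2ao had 152 and 228 counts against 0 in both. In the other direction Hist1h2ad had 24.5 and 52.8 counts from alignments against 270 and 345, Hist1h2be 192 and 190 against 808 and 787, and Hist1h2ae 76.6 and 79.4 against 339 and 297. The routes also differ in the length they divide by. Length minus effective length was 99 bases in the alignment-based table and, over members longer than 1000 bases, a median of 352 in the FASTQ-based table, more than the whole Hist1h4k model of 312 bases. The part of this in the lower counts was not tested.

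**Figure D4:**
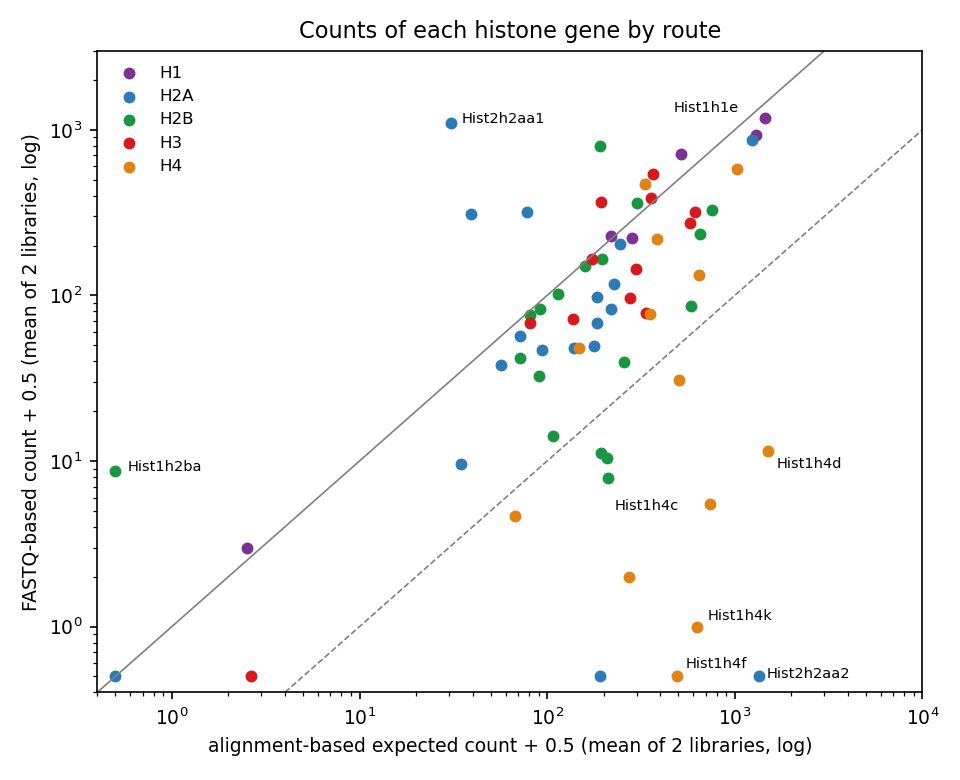
FASTQ-based against alignment-based counts of the 67 members (mean of 2 libraries plus 0.5, both axes log), coloured by histone type. The solid line marks equal counts and the dashed line 10% of the alignment-based count. Hist1h4d, Hist1h4c, Hist1h4k, Hist1h4f and Hist2h2aa2 lie far below the dashed line and Hist2h2aa1 far above the solid line.

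The 2 libraries were then compared, which compares their reads and not conditions. Members were slightly higher in the library labelled male, replicate 2. The test covered the 50 members whose mean count reached 100, of which 40 were higher there and 10 lower. Their median log2 ratio (replicate 2 over replicate 1) was 0.17 against 0.00 over all 12881 genes tested. By the exact binomial test with Benjamini-Hochberg adjustment over all 12881, 14 of the 50 members (28.0%) passed an adjusted p of 0.05, where 11.8% of all genes did. Of these, 13 (26.0%) were higher in the library labelled male, replicate 2, a direction called in 6.28% of all genes, and 1 was lower, called in 5.49%. None of the 50 passed together with a 2-fold change, which 0.303% of all genes did, although 20 had an unadjusted p under 0.05, as did 2958 of all 12881. With genes down to a mean count of 10 included, 1 of 63 members tested passed at 2-fold. The share of all genes that did so there was not counted, so this has no background beside it. That member was Hist1h2ad, at 24.5 and 52.8 counts (log2 ratio 1.18). Its scaled difference of 32.6 counts lay within 2 assignment standard deviations of the difference (1 being 17.6 counts), and from FASTQ, with 270 and 345 counts, the log2 ratio was 0.47.

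**Figure D5:**
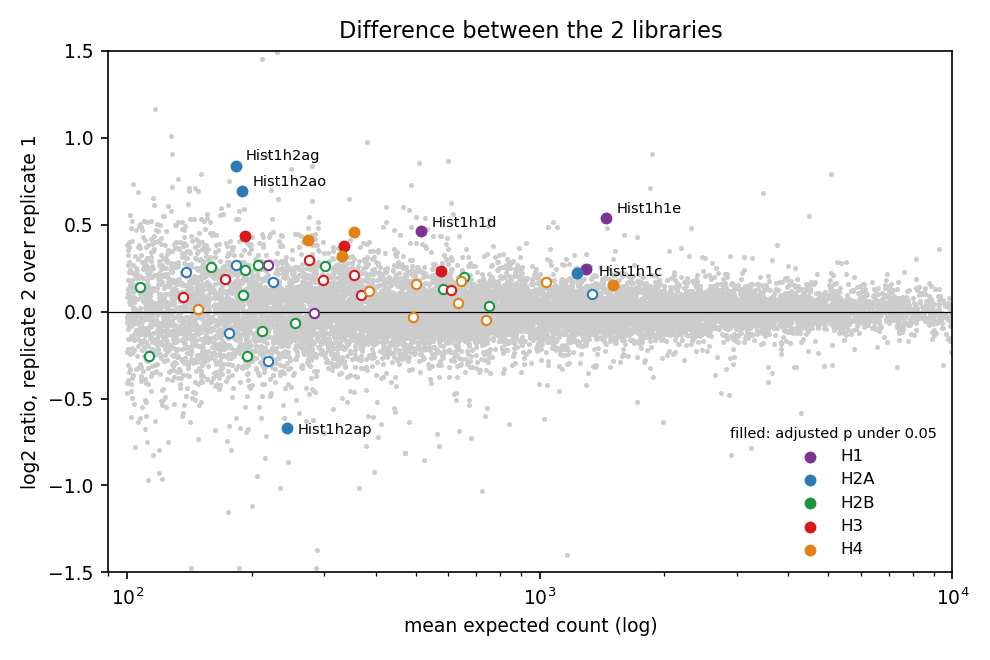
Log2 ratio of replicate 2 (labelled male) over replicate 1 against the mean expected count (log axis) for the genes tested, 425 of the 12881 of them outside the axes. Grey points are all genes, coloured points members by type, filled where the adjusted p was under 0.05. Of the filled points 13 lie above 0 and only Hist1h2ap lies below.

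The linker histones differed most as a type. H1 counts summed to 3429 and 4099, a ratio of 1.29 after scaling, with an exact 95% counting interval of 1.24 to 1.35. The ratio was 1.16 (1.11 to 1.22) for H3, 1.12 (1.07 to 1.17) for H2A, 1.10 (1.07 to 1.14) for H4 and 1.07 (1.03 to 1.12) for H2B. The interval for H1 did not overlap the others, and it covers counting error only. Hist1h1e had 1234 and 1660 counts, a log2 ratio of 0.54 (adjusted p = 1.83e-21, exact binomial test). Hist1h1d had 454 and 579 (0.46, adjusted p = 9.16e-06) and Hist1h1c 1238 and 1355 (0.24, adjusted p = 0.000411). From FASTQ these 3 passed in the same direction, with log2 ratios of 0.55, 0.42 and 0.30. Of the 14 called members 8 could be tested from FASTQ, and the other 5 of these 8 did not pass in the same direction. Hist1h1b had 207 and 231 counts (0.27, adjusted p = 0.217) and Hist1h1a 295 and 271 (-0.01). The genes of 1 type therefore did not share 1 ratio.

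The core histones held the other 11 calls, among 45 genes tested. Of 10 H2A genes tested 4 passed. Hist1h2ag had 138 and 228 counts (log2 ratio 0.84, adjusted p = 2.27e-06, exact binomial test), with 56.9 and 77.3 from FASTQ. Hist1h2ao had 152 and 228 (0.70) and Hist1h2ap, the only member called lower, 308 and 179 (-0.67). These genes have 7.35% and 7.83% unique windows, and the scaled differences of 94.4 and 114 counts compare with assignment standard deviations of 122 and 113 for the difference. Their sum was 460 and 407 counts, a log2 ratio of -0.06. Of the 14 calls, 12 exceeded 2 such standard deviations and these 2 did not. The remaining H2A call was Hist3h2a, at 1180 and 1273 counts (0.22).

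Of 10 H3 genes tested 3 passed, Hist2h3c2 (171 and 214 counts, 0.44), Hist1h3h (305 and 367, 0.38) and Hist1h3e (552 and 601, 0.24), and all 10 were higher in the library labelled male, replicate 2. Of 12 H4 genes 4 passed, led by Hist1h4i at 312 and 396 counts (0.46), then Hist1h4b at 245 and 302 (0.41), Hist1h4a at 307 and 355 (0.32) and Hist1h4d at 1484 and 1524 (0.15). Hist1h4a was lower from FASTQ, at 534 and 401 counts (-0.30, adjusted p = 0.0208, exact binomial test), so its direction depends on the route. Of 13 H2B genes none passed by the exact binomial test, 2 had an unadjusted p under 0.05, and 9 were higher. From FASTQ 1 H2B gene passed, Hist1h2bg at 204 and 263 counts (0.48, adjusted p = 0.0054, exact binomial test), which from alignments had 635 and 674 (0.20). The lowest ratios that did not pass were those of Hist1h2ab (249 and 189 counts, -0.28), Hist1h2bf (220 and 170, -0.26), Hist1h2bj (128 and 98.5, -0.26) and Hist1h2ah (191 and 162, -0.12).

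Other lists were read from the same fit. Of 13 S-phase genes tested none passed by the exact binomial test and none had an unadjusted p under 0.05, with a median log2 ratio of 0.10 and 9 of 13 higher. Of 11 replication-independent variants 2 passed, both higher, H1f0 (0.21, 1533 and 1637 counts) and H3f3b (0.10 after scaling, 5244 and 5182), with a median of 0.09. Of 9 genes tested from the processing list 1 passed, Lsm11, lower at -0.13. Of 6 decay genes and 9 chaperones none passed, with 1 and 2 at an unadjusted p under 0.05. Beside the 11.8% of all genes that passed, 2 of 11 variants and 1 of 9 genes from the processing list are near the background. The 6 neuronal markers leaned the same way as the histone genes, with 5 of 6 higher in the library labelled male, replicate 2, and 3 called, Camk2a (log2 ratio 0.17), Slc17a7 (0.12) and Nrgn (0.07). Summed levels of choroid plexus, myelin and red blood cell markers differed more. The 6 choroid plexus genes summed to 12.9 and 356 TPM, mostly Ttr at 8.02 and 340, and 2 of the 3 tested passed, both higher (Ttr and Sostdc1) and both at 2-fold. The 6 myelin genes summed to 195 and 335 TPM, with 5 of 5 tested higher, led by Mbp at 89.2 and 161 and with Mobp at 2-fold. The 5 red blood cell genes summed to 958 and 566 TPM and all were lower. Precursor genes of the oligodendrocyte lineage summed to 166 and 165 TPM, with a median log2 ratio of 0.06. Of these 5 genes 3 were higher and 2 lower. Both lower genes were called, Pdgfra (-0.155) and Cspg4 (-0.158), and none of the higher ones was. No marker in these 4 lists was at 0 in either library. The part of these tissue differences, or of the difference in sex-linked genes, in the histone ratios was not tested.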

How the data were processed

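Total RNA-seq libraries from hippocampus were analysed as 1 group with 2 biological replicates, per the labels. The authors deposited gene and transcript tables from transcriptome alignments to mm10 with GENCODE M21, holding expected counts, per the file headers and descriptions. The deposited TPM values are scaled over all rows, spike-ins included. The deposited percent values give a transcript's share of its gene. The deposited interval bounds on TPM (unit signal) and the deposited standard deviation of the assigned count (unit other) describe read assignment, and the bounds were not used in a result. A further deposited table holds estimated counts and TPM made from the FASTQ file, summed here per gene. The tools behind these tables, and whether strand was used in counting, are not given here by any source, so reads of overlapping and antisense genes may be shared, and 24 members overlap another gene. No source names molecular identifiers, so intervals cover counting error only. Rows named only by a number (26248 rows with 2.81e-05% and 2.00e-05% of counts) and spike-ins entered neither library sizes nor tests.

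Expected counts were rounded, and each gene's split over both libraries was tested two-sided by an exact binomial test against the TMM share (edgeR 4.0.16, R 4.3.3), with Benjamini-Hochberg adjustment over the 12881 genes whose mean count reached 100. Log2 ratios used a prior count of 0.5. Ratios of type sums have exact Clopper-Pearson intervals at 95%. The sex-linked genes differ between the libraries, which therefore do not hold RNA of the same animals alone, and p-values compare the reads of 2 samples. The test was checked on counts simulated with counting error only. That check held no spread of read assignment or between animals and does not bear on either. Alternatives used DESeq2 1.42.0 size factors, total scaling, other filters and prior counts, the FASTQ-based table, single libraries and other lengths. Stem-loops, windows and proteins came from GENCODE transcripts; proteins were translated from their coding sequences in place of RefSeq proteins. RefSeq gene lengths matched 66 of 67 members and were used for the 61 without introns. Python 3.11.15, pandas 2.3.3, numpy 2.4.6, scipy 1.17.1 and matplotlib 3.10.9 were used.

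The members and lists were chosen with earlier results of these data known. Named genes were, in each type, the 4 members of highest mean TPM and the lowest. To these came the 5 with the largest and the 5 with the smallest library ratio. The 5 furthest apart between the routes in each direction and all testis and somatic linker histone genes were named too. So were every list gene called at 2-fold, the sex-linked genes and the 3 highest genes of each list. The lists of choroid plexus, myelin, red blood cell and oligodendrocyte precursor markers did not follow this last rule. Other genes were chosen after their values were seen.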

Additional observations from a re-analysis of the deposited data

How the results depend on the processing

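No paired analysis was possible because the libraries form 1 group. The FASTQ-based table moved the summed TPM from 2090 to 2472, the share of counts from 0.0748% to 0.0429%, and the type shares to 6.88% (H1), 32.7% (H2A), 19.7% (H2B), 20.6% (H3) and 20.2% (H4), from 5.80%, 20.8%, 23.1%, 15.6% and 34.8%. It left 53 members detected and 8 called among 29 tested, 4 of them among the 14 calls from alignments, where 11.9% of all genes were called. Counts per full transcript length moved the share of H1 to 6.65% and of H4 to 34.0%. The next scales were chosen after seeing the data. Per RefSeq length the members summed to 2614 TPM, with shares of 11.0%, 19.1%, 18.4%, 13.1% and 38.5% in the same order, and undivided counts gave 16.3%, 19.6%, 18.5%, 14.8% and 30.8%. H4 was highest on every scale from alignments, not from FASTQ. With single libraries the summed TPM was 1985 and 2194, the share of counts 0.0702% to 0.0795%, and 63 members were detected in each. With other scalings 13 and 14 of 50 members were called, where 11.9% and 11.8% of all genes were. At a mean count of at least 10, 13 of 63 members were called, beside 8.77% of all genes. At a mean count of at least 1, 11 of 65 were called, beside 5.92%. The median log2 ratio stayed at 0.13 to 0.18 under all. At a mean count of at least 10 or 1, 1 member was called at 2-fold, and the 2-fold share of all genes was not counted there. Of 36 named levels, 28 moved beyond their SD from FASTQ. Depth limits the 17 members under a mean count of 100, which were not tested. The median counting error of a member's log2 ratio was 0.12.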
